A study of Drosophila melanogaster with 2 samples.

Results

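The regions described here are chains of neighbouring peaks, runs of at least 3 peaks of the tagged protein CG7372-eGFP that follow each other closely along a chromosome arm. They were taken from the conservative peak list of the series, which the authors made from both replicates. Overlapping peaks were merged and kept the summit (the point of highest signal) of the strongest of them, and merged peaks were joined into a chain as long as neighbouring summits lay at most 5000 bp apart. Of 4299 merged peaks on the main arms, 747 (17.4%) stood in 210 chains. Another 1080 stood in 540 pairs and 2472 had no other summit within 5000 bp, so that 3552 merged peaks lay outside chains.

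The study profiled one group by chromatin immunoprecipitation with sequencing (ChIP-seq): whole Drosophila melanogaster embryos, aged 0 to 24 h, of the strain CG7372-GFP, a transgenic line that makes an eGFP fusion of CG7372. The gene is annotated today as Phs, and the immunoprecipitation used an antibody against GFP. There were 2 biological replicates, each of 1 library, and no second condition, so no comparison between conditions can be made. Per the labels the line carries an insertion that targets CG7372, which would add a further copy of DNA from that locus, and whole embryos of all these ages were used in one sample. The replicates share 1 donor strain in the labels, and nothing in the files measures expression, so the tissue label could not be checked against markers.

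In ChIP-seq, DNA bound by a protein is recovered with an antibody and read, and a peak marks a place where more fragments were recovered than around it. Developmental genes of the fly often carry several regulatory elements, spread over long introns and the DNA between genes, and a transcription factor can be found at more than one of them. Neighbouring peaks can also be the promoters of neighbouring genes, since fly genes are closely packed.

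Sequence near the summits is shown first, because the share of summits with certain short words was compared between chains and the other peaks. The words CATACGCC, GCGTATAC and CGCATACG were picked because they are over-represented at the summits of these same peaks as a whole, and they are called the leading words here. Both strands were searched within 50 bp of each summit, so the reverse complements GGCGTATG, GTATACGC and CGTATGCG count as well. CATACGCC and CGCATACG overlap in CGCATACGCC, and 2 copies of GCGTATAC on opposite strands overlap in GCGTATACGC. A leading word was present in 0.677% of all 1356741 windows of 101 bp that tile the arms. The chain in ftz-f1, a nuclear receptor gene, held leading words at 3 of its 5 summits, and these windows are printed 5′ to 3′ on the plus strand of dm6 (Release 6, RefSeq), with the words in capitals.
ftz-f1 intron, chr3L:18756353-18756453: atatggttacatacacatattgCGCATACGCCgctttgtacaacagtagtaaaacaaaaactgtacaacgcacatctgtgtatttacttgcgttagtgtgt
ftz-f1 intron, chr3L:18758524-18758624: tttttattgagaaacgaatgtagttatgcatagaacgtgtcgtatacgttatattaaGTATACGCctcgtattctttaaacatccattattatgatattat
ftz-f1 promoter, chr3L:18765845-18765945: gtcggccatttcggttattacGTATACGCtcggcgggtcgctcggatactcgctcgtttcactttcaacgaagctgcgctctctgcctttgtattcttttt

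Only 3 other chains had leading words at 3 summits, those in gce, jim and CG46467, and windows of these 3 were chosen for printing after their values were seen. The gene gce encodes a juvenile hormone receptor, and its chain held all 3 leading words, with 2 separate matches in each of its intronic windows.
gce promoter, chrX:15297446-15297546: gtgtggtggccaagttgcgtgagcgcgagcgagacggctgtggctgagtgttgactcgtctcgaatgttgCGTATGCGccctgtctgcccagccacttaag
gce intron, chrX:15302052-15302152: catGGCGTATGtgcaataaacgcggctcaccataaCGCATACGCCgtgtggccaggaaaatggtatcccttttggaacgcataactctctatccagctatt
gce intron, chrX:15303326-15303426: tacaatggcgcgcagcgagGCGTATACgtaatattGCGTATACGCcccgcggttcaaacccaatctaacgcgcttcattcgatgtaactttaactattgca
jim intron, chr3L:22828050-22828150: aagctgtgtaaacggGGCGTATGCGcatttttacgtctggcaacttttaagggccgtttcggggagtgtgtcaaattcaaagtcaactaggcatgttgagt
jim intron, chr3L:22829213-22829313: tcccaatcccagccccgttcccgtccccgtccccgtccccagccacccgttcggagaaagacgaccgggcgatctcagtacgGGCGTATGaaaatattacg
CG46467 intron, chr3R:9940710-9940810: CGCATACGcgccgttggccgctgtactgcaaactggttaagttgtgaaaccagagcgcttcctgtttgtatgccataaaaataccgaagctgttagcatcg
CG46467 intron, chr3R:9945634-9945734: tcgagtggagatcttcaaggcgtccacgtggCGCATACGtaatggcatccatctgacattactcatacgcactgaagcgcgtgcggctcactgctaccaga

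Most chain summits had none of these words. The strongest summit of all chains, at a promoter of ph-p, and the strongest summit of the chain with most peaks, in an intron of CHES-1-like, are examples, and their windows hold no capitals.
ph-p promoter, chrX:2137304-2137404: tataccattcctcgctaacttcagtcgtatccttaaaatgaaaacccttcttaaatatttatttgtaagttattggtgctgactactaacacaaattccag
CHES-1-like intron, chrX:7706937-7707037: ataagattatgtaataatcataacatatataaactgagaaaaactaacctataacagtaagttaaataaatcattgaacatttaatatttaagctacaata

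Most chains were short. Of the 210 chains, 149 held 3 merged peaks, 35 held 4, 15 held 5 and 6 held 6. The remaining 5 held 8, 8, 9, 10 and 14. Neighbouring summits lay 2036 bp apart at the median, with the middle 50% of the 537 distances between 1077 and 3295 bp, and 122 distances (22.7%) were 1000 bp or less. From the first to the last summit a chain spanned 5399 bp at the median, with a range of 591 to 22485 bp. Positions chose the chains, so these spacings carry no test.

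**Figure D1:**
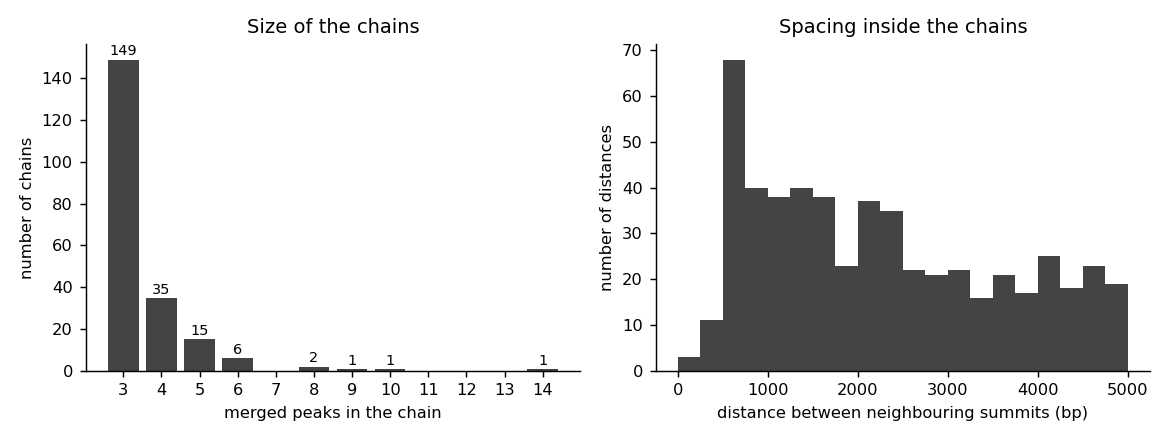
Left, the number of chains (y axis) by the number of merged peaks in the chain (x axis); right, the number of distances (y axis) by the distance in bp between neighbouring summits inside chains (x axis). Chains of 3 merged peaks made up 149 of 210, and the distances ran from 200 to 4994 bp with their median at 2036 bp.

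The limit of 5000 bp cut through a continuous range of distances. Just inside it lay summits 4994 bp apart at plh, 4992 bp apart between E(spl)m7-HLH and gro, and 4991 bp apart between vsg and CG18178. Just outside it lay summits 5013 bp apart within dlg1, which therefore left a lone peak beside a pair, and 5014 bp apart near CG7560, where a chain of 5 stood next to a pair. A gap of 5029 bp also kept a pair near RFeSP from the second largest chain, which has 10 peaks.

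Chains were found on every large arm. The share of merged peaks that stood in chains was 20.9% on X and 20.4% on 3L, against 15.4% on 2L, 15.4% on 2R and 14.9% on 3R. None of the 6 merged peaks of chromosome 4 stood in a chain, and Y had no peak. Of the 26 chains with at least 5 merged peaks, 10 were on X, 9 on 3L, 4 on 2R, 2 on 2L and 1 on 3R. These shares are descriptions of where the rule found its members.

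A protein-coding gene was said to hold a chain if its body, with 500 bp added at both ends, held all of the summits or more than 50% of them. By this rule 94 chains (44.8%, 334 members) lay wholly in a single gene, 55 (26.2%, 192 members) lay mainly in one and 61 (29.0%, 221 members) were spread over no one gene. Where several genes overlapped, the gene with most summits and then the shortest was named, and overlapping genes cannot be told apart. In the single-gene chains 243 of 334 summits (72.8%) lay in a first intron of some transcript, and 46 of these 94 chains had every summit there. That count includes promoter summits and was not made for other peaks. Classed with promoters set apart, 245 of the 334 summits (73.4%) were intronic, against 39.2% of all merged peaks. A single-gene chain lies at a gene body by rule, so this was not tested. Of the single-gene chains, 39 had no promoter peak at all. At least 2 promoter peaks (summit within 500 bp of a transcription start site, TSS) were present in 37 of 55 chains mainly in one gene, 19 of 94 single-gene chains and 26 of 61 spread chains. A chain mainly in one gene has a summit beyond the gene by definition, so these counts were not tested. The summits lay 1680 bp from the nearest TSS at the median in single-gene chains, 364 bp in chains mainly in one gene and 1037 bp in spread chains. By class, 275 of the 747 members lay at promoters, 324 in introns, 116 between genes, 16 in exons of noncoding genes, 7 in 3′ UTRs, 6 in 5′ UTRs and 3 in coding sequence. Of all chains, 149 held at least 1 promoter peak, 29 were made of promoter peaks alone, 35 of intronic peaks alone and 16 of intergenic peaks alone.

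The chain with most peaks lay in CHES-1-like, a gene for a forkhead-type transcription factor. Its 14 summits ran from 7691615 to 7709103 on X, a span of 17488 bp inside a gene of 27048 bp, and 11 of them were intronic and 3 at promoters. Their signal in the conservative list ran from 50.9 to 567.7 with a median of 113.6. Signal here means the value that the authors deposited for a peak; its scale is not stated and each list has its own, so values are compared only within a list. The strongest summit, at 7706987, had a signal of 321.7 in the ranked list of replicate 1 and 259.4 in that of replicate 2, the highest of the chain in each. The next strongest of the conservative list, at 7698423, had 157.0 and 129.4 in replicates 1 and 2. All 14 summits were found in the thresholded list of replicate 1 and 11 in that of replicate 2. One of the 14, at 7703364, shared a stretch of 50 bases with DNA elsewhere in the genome.

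The second chain by size had no protein-coding gene in it. Its 10 summits ran from 1621002 to 1643487 on 2L, the largest span of any chain. The nearest protein-coding genes lay 6842 bp below it, RFeSP, which encodes the iron-sulfur subunit of respiratory complex III, and 7771 bp above it, chinmo, which encodes a BTB zinc-finger transcription factor of neuronal temporal identity. After 2 summits in exons of noncoding RNA genes came 8 intergenic ones. The strongest, at 1638795, had a signal of 537.7 in the conservative list and 314.4 and 221.4 in replicates 1 and 2. The next, at 1632840, had 521.2 in the conservative list and 268.5 and 254.1 in replicates 1 and 2. Of its 10 summits, 9 were in the thresholded lists of both replicates. The order of its strongest peaks in replicate 2 (254.1 at 1632840 above 221.4 at 1638795) was the opposite of that in replicate 1. The chain of 9 peaks on 3L, from 627231 to 644288, likewise held no protein-coding gene. Its strongest summit, at 630100, had a signal of 241.8, with 125.7 and 112.2 in replicates 1 and 2. In all, 33 chains had no protein-coding gene between their first and last summits.

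**Figure D2:**
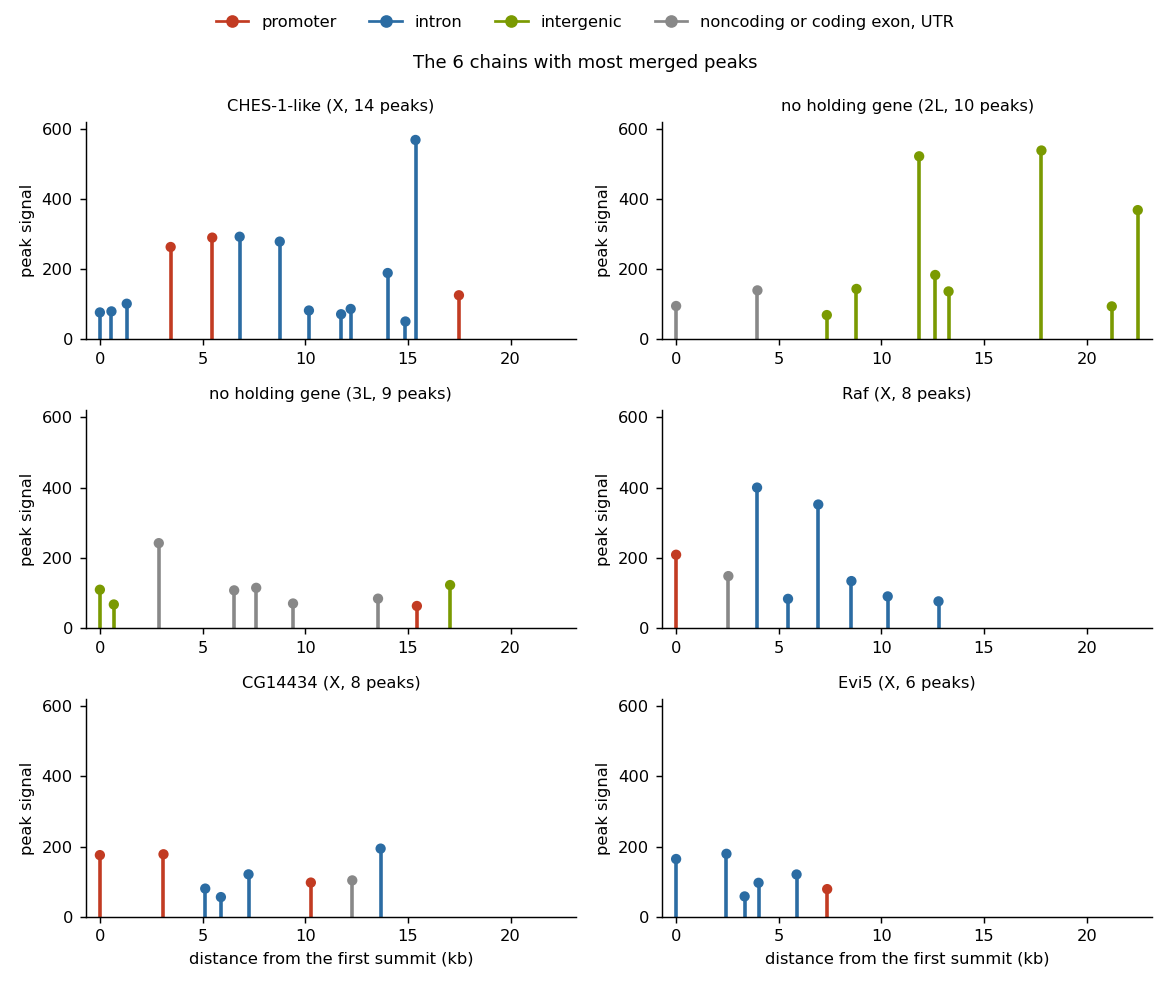
Maps of the 6 chains with most merged peaks, each drawn from its first summit (x axis, kb) with 1 stem per merged peak and the signal of the conservative list as its height (y axis); colours give the class of the summit. In CHES-1-like the strongest stem, 567.7, is intronic and near the far end, while the chain of 10 peaks on 2L has its strong stems, 537.7 and 521.2, between genes.

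Next in size came 2 chains of 8 peaks on X. Raf encodes the MAP kinase kinase kinase that acts below receptor tyrosine kinases, and its chain ran to 2306552, with 7 of the 8 summits in the gene. The first summit, at 2293772, lay before Raf at a promoter of the neighbouring gene CG2865. The strongest summit, at 2297715, had a signal of 400.0, with 199.1 and 203.8 in replicates 1 and 2. A further strong summit, at 2300696, had 351.8, with 166.3 and 184.5 in replicates 1 and 2. The 8 peaks mainly in CG14434 were more even, between 56.1 and 194.1, and 6 of them were in the thresholded lists of both replicates. Of the 6-peak chains, Evi5, which encodes a Rab GTPase-activating protein, had 5 intronic summits and 1 at its promoter, with signals of 58.0 to 179.3. Socs36E, a suppressor of cytokine signalling that acts on the JAK/STAT pathway, had signals of 54.4 to 120.4, and only 2 of its 6 summits were in the thresholded lists of both replicates. The corepressor gene sbb, on 2R, had 6 intronic summits at least 14675 bp from any TSS, all of them in the thresholded lists of both replicates, with a highest signal of 312.3. A chain mainly in Hr4, on X, also had 6 peaks, with a highest signal of 206.5, and Hr4 is described below with the ecdysone genes. The last 2 were spread over several genes. On 2R, 6 summits over 10895 bp lay nearest to Alg3, a mannosyltransferase of protein glycosylation, Sesn, which encodes sestrin, and CG46429, and the strongest had a signal of 476.0. On X, 6 summits over 12348 bp lay nearest to LPCAT, an acyltransferase of phospholipid synthesis, and Hex-A, a hexokinase, with a highest signal of 411.0 and all 6 in the thresholded lists of both replicates.

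The 5 chains with the strongest members are described next. The Polycomb group gene ph-p, whose protein is a subunit of Polycomb repressive complex 1, held 5 summits within 3440 bp. The summit at 2137354 had a signal of 1212.1, with 638.7 in replicate 1 and 570.8 in replicate 2. Its neighbour at 2137891 had 692.3, with 406.4 and 295.8 in replicates 1 and 2. The other 3 had 67.8, 189.5 and 84.7 in the conservative list, so the chain had 2 strong promoter peaks and 3 that were far weaker. Trl, which encodes the GAGA factor, held a summit in an intron at 14759525 on 3L with a signal of 1042.2, and with 609.5 and 436.9 in replicates 1 and 2. The other 3 summits of that chain had 189.1, 219.0 and 57.5. HmgZ, which encodes an HMG-box protein, had an intronic summit of 954.2 on 2R, with 546.2 and 408.3 in replicates 1 and 2, beside summits of 341.8 and 96.6 that lay nearer to a TSS of HmgD. A chain near lncRNA:CR44619 on X had 4 summits of 1127.2, 591.2, 352.1 and 111.6, all in the thresholded lists of both replicates; its weakest window shared 75 of 152 stretches of 50 bases with DNA elsewhere. The chain in Atat, which encodes an acetyltransferase of alpha-tubulin, had a summit of 825.3 at a promoter of Atat. Its summit of 425.9 lay at the promoter of aay, a gene inside Atat that also holds the chain, and the one of 55.3 lay between them.

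Within a chain the peaks were unequal. The strongest had a median signal of 189.1, the next 104.3 and the third 74.7. The strongest exceeded the next by a median factor of 1.49 and the weakest by a median factor of 2.52, with a range of 1.05 to 18.1. In 57 chains (27.1%) the strongest had more than 2 times the signal of the next. Chain members had a median signal of 99.5, against 90.6 outside chains, and 4 of the 25 and 22 of the 100 strongest merged peaks were chain members. The signal decided which summit a merged peak kept, so none of this was tested.

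The 5 chains of shortest span lay each in 1 gene. The shortest was in wun on 2R, which encodes a lipid phosphate phosphatase that guides germ cells, with 3 summits in 591 bp and signals of 81.5, 66.0 and 17.3. In each replicate 2 of these 3 summits overlapped the same ranked peak, with 34.3 in replicate 1 and 37.0 in replicate 2, so they were not separate peaks there. The same held in replicate 1 for the chain of kuk, a gene of a nuclear envelope protein, where summits 200 bp apart shared 1 ranked peak of 114.2. Nak, which encodes a kinase that binds Numb, had 3 intronic summits in 1138 bp, the strongest with 244.8 and with 158.2 and 88.4 in replicates 1 and 2. Srpk79D, a kinase of splicing factors, had 3 promoter peaks in 1292 bp with signals of 59.0 to 87.1. The potassium channel gene KCNQ had 3 summits in 1595 bp with signals of 104.1, 472.3 and 159.4 that lay nearest to a TSS of mlt inside it, and all 3 were in the thresholded lists of both replicates.

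Chains were held by 161 protein-coding genes, which is 1.15% of the 13968 annotated, and 4 of them held 2 chains each: Hr4, mtgo, and the overlapping genes CG46467 and Glut4EF, which share theirs. The holding genes were long, with a median body of 16810 bp, against 2164.5 bp over all protein-coding genes. The share of genes that held a chain was 8.95% (28 of 313, 95% Wilson interval 6.26 to 12.6%) for bodies of 50000 bp or more and 6.08% (43 of 707, 4.55 to 8.09%) from 20000 to 50000 bp. It was 4.56% (44 of 965) from 10000 to 20000 bp, 1.19% (18 of 1507) from 5000 to 10000 bp, 0.482% (19 of 3944) from 2000 to 5000 bp and 0.138% (9 of 6532) below that. Length enters the rule, since a longer body can hold more summits, so gene lists were read beside the count that the same length classes would give.

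**Figure D3:**
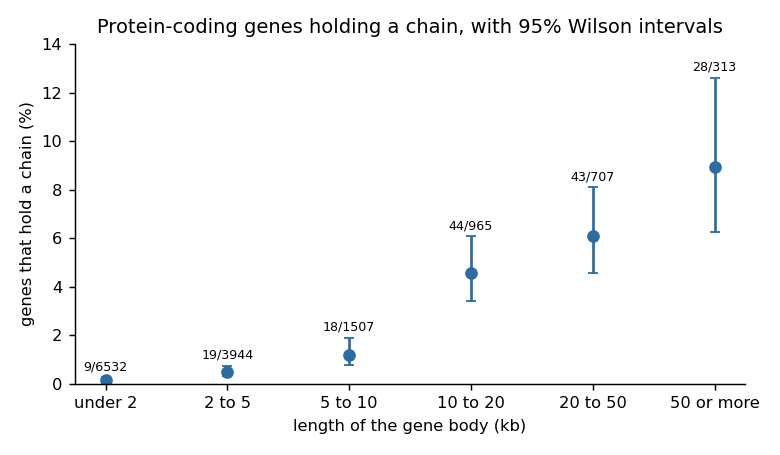
Share of protein-coding genes that hold a chain (y axis, %) by length of the gene body (x axis, kb), with 95% Wilson intervals and the counts printed above each point. The share lies at 0.138% in the shortest class and at 8.95% in the longest.

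Among 16 lists of genes by function, the one for ecdysone receptor and response genes had most holders. Ecdysone is the steroid hormone that times moulting and metamorphosis, and a pulse of it also occurs in the embryo. Of 14 genes listed, 5 held a chain, where the shares of their length classes add up to 0.953. Hr4, a nuclear receptor gene of 66017 bp, held 2 chains with 9 summits in all, 8 of them intronic and 1 at a promoter of the neighbouring gene CG3587, the strongest at 1963929 on X with a signal of 322.5 and with 175.7 and 143.2 in replicates 1 and 2. Another nuclear receptor gene, ftz-f1, held 5 summits over 13135 bp with signals of 52.9 to 113.1, of which 2 were in the thresholded lists of both replicates. Eip74EF, which encodes an ETS-domain transcription factor, held 4 summits, the strongest at a promoter with 178.7 and with 92.0 and 88.0 in replicates 1 and 2. Leading words were present at 3 of 5 summits in ftz-f1, 2 of 4 in Eip74EF, 1 of 3 in Hr3, 1 of 3 in Eip75B and 0 of 9 in Hr4. The nuclear receptor gene Hr3 held 3 summits, up to 522.5, that lay also in the overlapping genes CG46321 and CG12912 and cannot be assigned to one of the 3. Eip75B, a further nuclear receptor gene, held 3 intronic summits of 62.4, 71.3 and 101.9, none of them in the thresholded list of replicate 2.

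Signalling genes gave smaller counts. Of 18 genes of the EGF and FGF receptor pathways, 2 held a chain, against 0.661 by length: Raf, described above, and vn, which encodes a neuregulin-like ligand of the EGF receptor and had weak intronic summits of 61.6 to 73.2. Of 16 genes of the Dpp and activin pathway, 2 held a chain, against 0.488 by length. They were shn, a zinc-finger transcription factor gene with 4 summits and a highest signal of 238.0, and sog, which encodes an extracellular antagonist of BMP ligands and had 3 intronic summits up to 188.4. Of 19 regulators of small GTPases and the cytoskeleton, 3 held a chain, against 0.705 by length. Their strongest summits had 162.3 in mbc, which encodes a Rac exchange factor, 133.2 in cv-c, which encodes a GTPase-activating protein, and 115.5 in RhoGAP71E. Those of mbc and RhoGAP71E lay nearest to the TSS of a neighbouring gene. None of the 12 listed Notch pathway genes and none of the 19 listed Wingless and Hedgehog pathway genes held a chain, against 0.506 and 0.625 by length. These lists do not cover every gene of a pathway. The genes gro and rdx, which are on neither list, each held a chain, with highest signals of 325.6 and 252.7. Between the first and last summits of the gro chain also lay E(spl)m7-HLH and E(spl)m8-HLH. Chains spread over several genes count for no list. One of them, with 3 promoter summits up to 176.1, lay nearest to the TSSs of E(spl)m2-BFM, lncRNA:CR43643 and E(spl)m3-HLH.

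Lists of genes of nuclear proteins gave low counts of holders, and Trl is counted in both the BTB-domain list and the Polycomb and trithorax list. Of 15 BTB-domain transcription factor genes, Trl and rib held a chain, against 0.921 by length, and rib, a gene of tubular organ formation, had 3 intronic summits of 73.5, 66.5 and 95.2. Of 20 Polycomb and trithorax group genes, ph-p and Trl held a chain, against 0.575 by length. Of 18 cell cycle regulators, Dp, the partner of E2F factors, held 3 promoter summits with signals of 75.9, 310.6 and 154.2, the first of them nearest to the TSS of Fsn, against 0.257 genes by length. No chain was held by the 25 gap, pair-rule and Hox genes, the 21 neural fate transcription factor genes or the 12 genes of histone-modifying enzymes and chromatin remodellers, against 0.674, 0.481 and 0.277 by length. Holding counts only summits in a gene body with 500 bp added, so chains in the DNA beside a gene are not in these counts. For example, a chain on 3R with 3 intergenic summits up to 115.4 lay nearest to a TSS of ems and was held by no gene.

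Long genes were not always holders. No chain lay in any of 27 genes of RNA-binding proteins, 27 genes of axon guidance and adhesion or 20 genes of synapses and ion channels, lists whose genes are 37131, 49917 and 37056.5 bp long at the median and would give 1.63, 1.92 and 1.15 holders by length. These lists do not cover all genes of such functions. Among genes that are on none of the 3 lists, the channel genes KCNQ and Irk1 held a chain, with highest signals of 472.3 and 230.4. So did beat-Ib (324.1), Dg (125.1), larp (115.2) and Tis11 (312.4). Among 82 genes of cytosolic ribosomal proteins, short genes with a median of 1344.5 bp, only RpL34b held a chain, with 4 promoter summits of 55.7 to 279.2 that also reach neighbouring genes. The lists are small and were written with earlier results of these peaks known, so the counts are descriptions.

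The chain in comm3 needs a separate remark. Its 5 summits ran from 15625314 to 15631941 on 3L, just beyond the end of Phs at 15624130, and the strongest had a signal of 488.8, with 244.8 and 265.0 in replicates 1 and 2. A transgene may bring a further copy of DNA near Phs, and how far it reaches is not given in the labels, so whether it touches these summits was not tested.

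Promoter summits were somewhat less frequent in chains, a difference that did not pass the test. One peak stood for each chain, the middle one by position, since peaks of a chain share a locus, and these 210 were compared with the 3552 merged peaks outside chains by a two-sided Fisher's exact test, adjusted by the Benjamini-Hochberg method over 8 shares. The promoter share was 37.6% (31.3 to 44.3%, 95% Wilson interval) in chains, against 43.5% outside, with 42.3% over all merged peaks (odds ratio 0.785, 0.59 to 1.05, adjusted p = 0.335 by the exact test). The intron share was 43.8% in chains and 38.4% outside (odds ratio 1.25, 0.947 to 1.66, adjusted p = 0.335 by the exact test). Intergenic summits made up 14.8% in chains and 15% outside (odds ratio 0.991, 0.671 to 1.46, adjusted p = 1 by the exact test). Over all 747 members the promoter share was 36.8%. A logistic model over all 4299 merged peaks, with chain membership as its term, was added after seeing the data. Its errors were clustered by chain, pair or lone peak. This logistic model put the odds ratio at 0.757 (0.615 to 0.931, adjusted p = 0.0332, n = 747 members and 3552 other peaks). Counting a promoter as within 200 bp of a TSS, the middle peaks gave 0.652 (adjusted p = 0.0425 by the exact test), and over all alternatives of this share the adjusted p ranged from 0.00332 to 1.

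The promoter share also differed with signal. Among the strongest 25% of all merged peaks 41.9% of 222 chain members and 61.7% of 853 other peaks lay at a promoter, while among the weakest 25% the shares were 33.1% of 160 and 32.6% of 915. This split used the signal and was not tested.

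Leading words were rarer at chain summits than at all merged peaks outside chains, most of which are lone peaks. They were present at 28 of the 210 middle peaks (13.3%, 9.39 to 18.6%), against 792 of 3552 peaks outside chains (22.3%) and 21% over all merged peaks (odds ratio 0.544, 0.364 to 0.814, adjusted p = 0.0149 by Fisher's exact test). Over all 747 members the share was 14.9%. The words were picked on these same peaks, most of which lie outside chains. Their choice is therefore not independent of this comparison or of the word models below. Peaks in pairs had a share of 15.5% (167 of 1080), near that of chain members, and lone peaks had 25.3% (625 of 2472). Chains were not tested against pairs, and against lone peaks alone the odds ratio was 0.461 (adjusted p = 0.000425 by the exact test). The call was lost in either replicate alone. With the thresholded list of replicate 2 alone the odds ratio was 0.565 (adjusted p = 0.513), and with that of replicate 1 alone it was 0.696 (adjusted p = 0.524), both by the exact test. It was also lost when the peak of lowest coordinate stood for the chain (odds ratio 0.853, adjusted p = 0.735) but not with the peak of highest coordinate (0.479, adjusted p = 0.00161), again by the exact test, and the odds ratio stayed below 1 in all alternatives. Over the alternatives tested in this family the adjusted p ranged from 2.6e-05 to 0.838.

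By class, the shares stood apart outside promoters. Among promoter summits, 26 of 275 chain members (9.45%, 6.53 to 13.5%) had a leading word, against 134 of 1545 other peaks (8.67%, 7.37 to 10.2%). Among intronic summits, it was 61 of 324 in chains (18.8%, 14.9 to 23.4%), against 459 of 1363 (33.7%, 31.2 to 36.2%). Among intergenic summits, it was 17 of 116 in chains (14.7%, 9.36 to 22.2%), against 163 of 534 (30.5%, 26.8 to 34.6%). A logistic model with errors clustered by chain was restricted to intronic and intergenic summits and added after seeing the data. It gave an odds ratio of 0.442 (0.338 to 0.578, n = 324 intronic and 116 intergenic members, against 1363 and 534 other peaks). Promoters, where the shares had been seen to be close, were left out of it. The choice of classes thus favoured a low odds ratio, which is a description and carries no test. With the class and the log2 signal as terms, the same logistic model over all classes gave 0.56 (0.438 to 0.717, p = 3.95e-06, n = 747 members and 3552 other peaks). Whether the difference between promoters and other classes is itself larger than counting error was not tested.

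**Figure D4:**
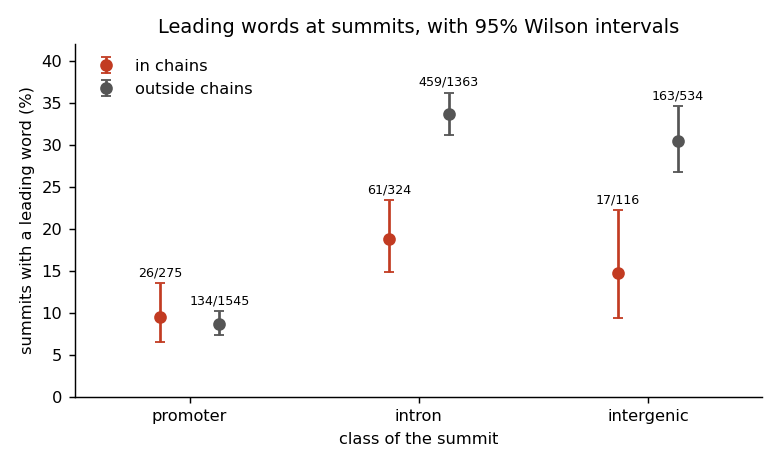
Share of summits with a leading word within 50 bp (y axis, %) by class (x axis), for chain members and for peaks outside chains, with 95% Wilson intervals and counts. The points nearly coincide at promoters (9.45% and 8.67%) and stand apart in introns (18.8% and 33.7%) and between genes (14.7% and 30.5%).

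Leading words were scattered over the chains. At least 1 summit with a word was present in 83 chains (39.5%), at least 2 in 24 and 3 in 4, and 127 chains had none. The share of chains with a word was 48.9% among single-gene chains, 27.3% among chains mainly in one gene and 36.1% among spread chains. The rank of a peak within its chain made little difference, with words at 16.2% of the strongest peaks, 14.8% of the next, 15.7% of the third and 11.1% of the later ones. Nor was there a steady trend with signal among chain members. From the weakest to the strongest 25% of merged peaks, 14.4%, 16.3%, 16.6% and 12.6% of them had a word. Among peaks outside chains the share fell in the same order, with 28%, 24.4%, 22.9% and 13.4%. In the strongest 25%, chain members and other peaks were thus close (12.6% of 222 and 13.4% of 853). This split used the signal and was not tested. The 3 ftz-f1 windows printed above had signals of 91.9, 113.1 and 60.7, the 2 of jim 65.0 and 63.1, the 2 of CG46467 82.8 and 152.3 and the 3 of gce 107.9, 94.5 and 231.5. In gce the strongest summit, with 435.8, was the one of 4 that had no word.

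Other words told the chains and the remaining peaks less apart. GAGAG (reverse complement CTCTC), the core of the site bound by the GAGA factor, was present at 9.52% of middle peaks and 9.15% of peaks outside chains (odds ratio 1.07, 0.667 to 1.71, adjusted p = 1 by Fisher's exact test), both below the 11.5% of genomic windows. TATCGATA, which is its own reverse complement and is the site of the factor DREF, was present at 0.476% and 1.13% (odds ratio 0.621, 0.121 to 3.19, adjusted p = 1 by the exact test), against 0.277% of windows. CAGGTAG (reverse complement CTACCTG), the site of the early factor Zelda, was found at 0 of 210 middle peaks, where the upper Wilson limit is 1.8%, and at 0.31% of the others. A difference was not detectable at counts this low.

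Exact copies were not found among the peaks of one chain, and diverged copies were not searched for. None of 1124 pairs of windows of 201 bp within chains shared a stretch of 20 bases, and only 4 of 747 members held any stretch of 50 bases found elsewhere, none of them in at least 50% of the window. Repeat-masked sequence lay under 27.7% of chain summits and 26.7% of other summits. The windows were rich in A and T, with a median of 66.3% in chains and 63.4% outside.

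The replicates gave the chains unequal support. Of 747 members, 410 (54.9%) were in the thresholded lists of both replicates, against 1661 of 3552 peaks outside chains (46.8%) and 48.2% over all merged peaks, and 158 members (21.2%) were in neither. All members were in both lists in 29 chains and none in 17. At least 3 members were in each list in 59 chains. Over 741 members with a ranked peak in each replicate, signals had a Spearman correlation of 0.779 and a Pearson's r of 0.872 on the log2 scale, across peaks that are not independent replicates. The strongest member was the same in both replicates in 159 of 210 chains (75.7%). The conservative list was made from both replicates, so this is no separate evidence that they agree.

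**Figure D5:**
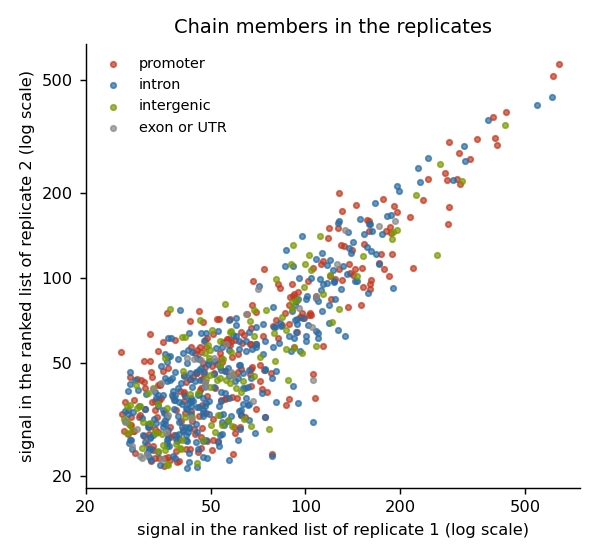
Signal of 741 chain members in the ranked list of replicate 1 (x axis, log scale) and of replicate 2 (y axis, log scale), each on the scale of its own list, coloured by class. The strongest members, 638.7 and 570.8 at ph-p, lie together at the top right, and the scatter is wider among weak peaks.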

How the data were processed

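ChIP-seq peaks of CG7372-eGFP from 2 biological replicates were used as deposited, on dm6. Per the labels, chromatin was sonicated to 200 to 800 bp. The authors filtered the peaks by IDR, the irreproducible discovery rate. The deposited signal of each peak has no stated scale and was used only within its own list. Which aligner and peak caller were used is not given in the sources used here, no control library was analysed here, and depth is unknown, since the files give no read counts.

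Peaks on the main arms were taken, which left out 1 of the conservative list, and 4593 peaks made 4299 merged peaks. Members comprised 803 deposited peaks, and 55 members were merged from more than 1. Members in a replicate were matched to its lists by an overlap of 1 bp. Summits were annotated with Ensembl release 115 (BDGP 6.54, 18277 genes). Promoters came first, then 5′ UTR, coding sequence and 3′ UTR, then noncoding exons and introns, and summits in no gene were intergenic. Of the symbols in the gene lists, 4 were matched through synonyms and 1, Dl, was not matched and not counted. Odds ratios carry 0.5 in each cell. Wilson intervals cover counting error only. Python 3.11.15, SciPy 1.17.1, NumPy 2.4.6, statsmodels 0.14.6 and matplotlib 3.10.9 were used. The chaining and the tests were tested on simulated data.

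Named genes were those of the 12 chains with most merged peaks, the 5 with the highest signal, the 5 of shortest span, up to 4 holders per list and the distances nearest to the limit. The chains in gce, jim, CG46467, Glut4EF, mtgo and comm3, and neighbours of named genes, were named after their values were seen. The same holds for rdx, Irk1, beat-Ib, Dg, larp, Tis11 and ems, and for E(spl)m2-BFM, E(spl)m3-HLH, E(spl)m8-HLH and lncRNA:CR43643. The members, the words and the lists were chosen with earlier results of these data known. Alternatives changed the linking distance, the list, the replicate, the chain size, the merging, the peak that stands for a chain, the comparison peaks and the TSS and word distances. The peak of highest coordinate and the 3 clustered logistic models were added after seeing the data.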

Additional observations from a re-analysis of the deposited data

How the results depend on the processing

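The number of chains, of members and of chains held by 1 gene followed the rule closely. At 2500 bp they were 90, 313 and 53, and at 10000 bp there were 415 chains with 1607 members. With peaks of at least the median signal they were 68, 235 and 35, and with chains of at least 4 peaks 61, 300 and 29. Leaving out a replicate gave 100 to 101 chains, 363 to 373 members and 43 to 48 chains in 1 gene. The odds ratio of leading words, below 1 in every alternative run, lost its call without a replicate (0.565 to 0.696), at or above the median signal (0.737), with chains of at least 4 (0.581) and with the peak of lowest coordinate (0.853). The promoter share passed the test with all members (0.757), with all members clustered by chain (0.757) and at 200 bp (0.652). The intron share passed with all members (1.23), which counts peaks of 1 locus as independent, and not when they were clustered, and the share over 5000 bp from a TSS passed (0.568). The remaining shares passed no test and turned round 1. The intergenic odds ratio was 1.47 at 2500 bp, 1.14 to 1.26 without a replicate, 1.27 at the median signal, 1.02 with chains of at least 4, 1.04 with all members in either test and 1.3 with the peak of highest coordinate, where the intron share was 0.991. The share over 2000 bp from a TSS gave 1.01 to 1.2 without a replicate, 1.04 at the median signal, 1.44 with chains of at least 4, 1.08 with the lowest coordinate, 1.02 with all members in either test and 1.16 at 1000 bp. GAGAG gave 1 with all members, 0.994 clustered and 0.841 with the highest coordinate. TATCGATA gave 2.76 with the lowest coordinate, 1.12 with all members, 1.07 clustered and 1.04 with the highest. CAGGTAG, with few counts, gave 1.76 at 2500 bp, 1.13 to 3.37 without a replicate, 2.3 at the median signal, 2.59 with chains of at least 4, 2.2 with either end peak, 1.03 with all members and 1.34 within 100 bp. The causes were not tested. The peak of highest coordinate and the clustered models were chosen after seeing the data. No paired analysis was possible because there is 1 group. Depth is unknown, so chains that a deeper library would join or extend cannot be counted.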

Other observations

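Some chains without one holding gene lay over compact gene clusters and were not among the named ones, so they were picked here after their values were seen. A chain of 3 summits on 3L covered a small heat shock gene cluster with Hsp22, Hsp26 and Hsp67Bc between its first and last summits. Its median signal was 67.9, and 0 of the 3 summits were in the thresholded list of replicate 1 and 2 in that of replicate 2. Another chain of 5 summits on 3L covered D19A and D19B, which encode zinc-finger proteins, with a median signal of 111.3. A further chain on 3L, of 5 promoter summits, had 6 protein-coding genes between its first and last summits. One of these genes was phol, a Pleiohomeotic-like gene of the Polycomb group. The TSSs nearest to the summits were those of CG3448, asRNA:CR45873, CG3552 and CG44838, not that of phol. The highest signal of the chain was 665.2 and the median 114.5.

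Other single-gene chains of 5 summits, likewise picked after their values were seen, lay in Tlk, a kinase gene of chromatin assembly, with a median signal of 148.6, in NFAT, a transcription factor gene, with 154.3, and in Moe, which encodes the actin-linking protein moesin, with 92.3. These 3 are on X, and CG32264 on 3L held a further such chain with a median signal of 56.5.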
